A study of Mus musculus with 6 samples.

Results

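The HoxB cluster is one of the 4 clusters of Hox genes in the mouse, and it was followed here in embryos that lack normal Dll3, a Notch ligand needed for regular somite formation. Its members were taken as the probe sets whose platform annotation names exactly 1 gene written as Hoxb and a number. That rule found 10 probe sets, out of 22626 that are not controls, for 9 genes: Hoxb1, Hoxb2, Hoxb3, Hoxb4 (2 probe sets), Hoxb5, Hoxb6, Hoxb7, Hoxb9 and Hoxb13. Hoxb8 had no probe set of its own. One further probe set is annotated to Hoxb8 and Hoxb7 together, and it is described separately.

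Hox genes encode homeodomain transcription factors that give cells a position along the head to tail axis. Within a cluster the genes lie in the order in which they are used: the low paralog numbers at the 3′ end are switched on first and reach farthest toward the head, and the high numbers at the 5′ end are switched on later and stay closer to the tail. In the mid-gestation mouse embryo HoxB genes are transcribed in the hindbrain and spinal cord as well as in paraxial and lateral mesoderm, and their transcription is tuned by retinoic acid, Cdx factors and the chromatin regulators of the Polycomb and Trithorax groups.

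All embryos were on the c57bl/6 strain and were collected at 9.5 days post coitum. The wild-type group carried Dll3+/+, and the mutant group carried Dll3neo/neo, also written Dll3-tm1Rbe/tm1Rbe. Each genotype had 3 pools of embryos, described as biological replicates, and each pool was hybridised to 1 Affymetrix MOE430A array, 6 arrays in all. The dissected piece ran from the otic placode to the newest somite, without heart and endoderm, so it held neural tube and other tissues of the trunk and neck beside the somites. In such a bulk piece, fewer cells of a type and less RNA per cell cannot be told apart. The files hold, for each probe set, every pool's linear ratio to a reference that is that probe set's own and lies near 1. Pools can therefore be compared for a gene, but not one gene's level with another's, and no defining marker of the tissue can be called present or absent. The Dll3 probe set read 0.960, 1.004 and 1.028 in wild-type pools and 0.996, 1.013 and 0.941 in mutant pools. These groups overlapped, and where the insertion lies in relation to the probes was not known here, so the labels could not be checked with it.

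The control sequence just before the gene start is shown for Hoxb1, which had the lowest log2 difference of the cluster, and for Hoxb4, which lay near 0. Both stretches cover the 250 bases before the RefSeq start on the plus strand of build GRCm38.p6, chr11:96365508-96365757 for Hoxb1 and chr11:96318017-96318266 for Hoxb4, and both are written 5′ to 3′ with motif matches in capitals.
Hoxb1: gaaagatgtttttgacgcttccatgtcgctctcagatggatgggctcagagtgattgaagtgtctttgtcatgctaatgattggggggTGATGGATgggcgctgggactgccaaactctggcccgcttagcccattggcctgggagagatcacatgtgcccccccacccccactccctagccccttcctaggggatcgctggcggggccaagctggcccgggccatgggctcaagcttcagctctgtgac
Hoxb4: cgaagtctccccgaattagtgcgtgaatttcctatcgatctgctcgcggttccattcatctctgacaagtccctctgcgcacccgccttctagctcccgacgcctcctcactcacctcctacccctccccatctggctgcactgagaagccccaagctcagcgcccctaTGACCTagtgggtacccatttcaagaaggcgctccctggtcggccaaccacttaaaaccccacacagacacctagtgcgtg
Both strands were searched for 4 motifs. TGATNNAT, the joint site of Hox and Pbx proteins, had 1 match before Hoxb1, from 162 to 155 bases before the start, and none before Hoxb4. AGGTCA, the core of a retinoic acid receptor site, had 1 match before Hoxb4, on the other strand at 81 to 76 bases before the start, and none before Hoxb1. TTTATG (Cdx) and TGACAG (Meis) had no match in either window, and no matches overlapped. Of 32851 RefSeq windows of the same length, 7.68% held the Hox and Pbx motif, 14% the retinoic acid motif, 10.8% the Cdx motif and 15.9% the Meis motif. A match is a description of letters in the sequence, not a bound site.

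Mutant pools were compared with wild-type pools to find genes that respond to the loss of normal Dll3, and no HoxB gene did so past the threshold. In limma with Benjamini-Hochberg adjustment over all probe sets, each of the 10 had an adjusted p of 0.99996. No probe set of the array passed either (0 of 22626, 0%). At an unadjusted p under 0.05 there were 595 probe sets (2.63%), of which 282 were lower in the mutant pools (1.25% of all), and none of the 10 HoxB probe sets was among them. By direction, 9 of the 10 HoxB probe sets had a log2 difference below 0 (mutant minus wild-type), against 48.5% of all probe sets. As genes these were 8 of 9, against 48.1% of all 12393 genes. The median over the HoxB genes was -0.06 and the median over all genes was 0.0035. Hoxb1, Hoxb6 and Hoxb9 lay lowest, at -0.25 to -0.22, and a difference of -0.2 or lower was found in 2.39% of all probe sets. In the order of the cluster, these genes were not neighbours: Hoxb2 to Hoxb5 lay between the first and the others, at -0.10 to -0.03, and Hoxb7 was at -0.04. From the lowest difference (Hoxb1) to the highest (Hoxb13), the 95% interval of each gene held the value of the next. The common direction rested on a single pool: without mutant replicate 1, 4 of the 9 genes lay below 0 and the median was 0.0015. With any other pool left out, 7 or 8 of the 9 lay below 0.

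**Figure D1:**
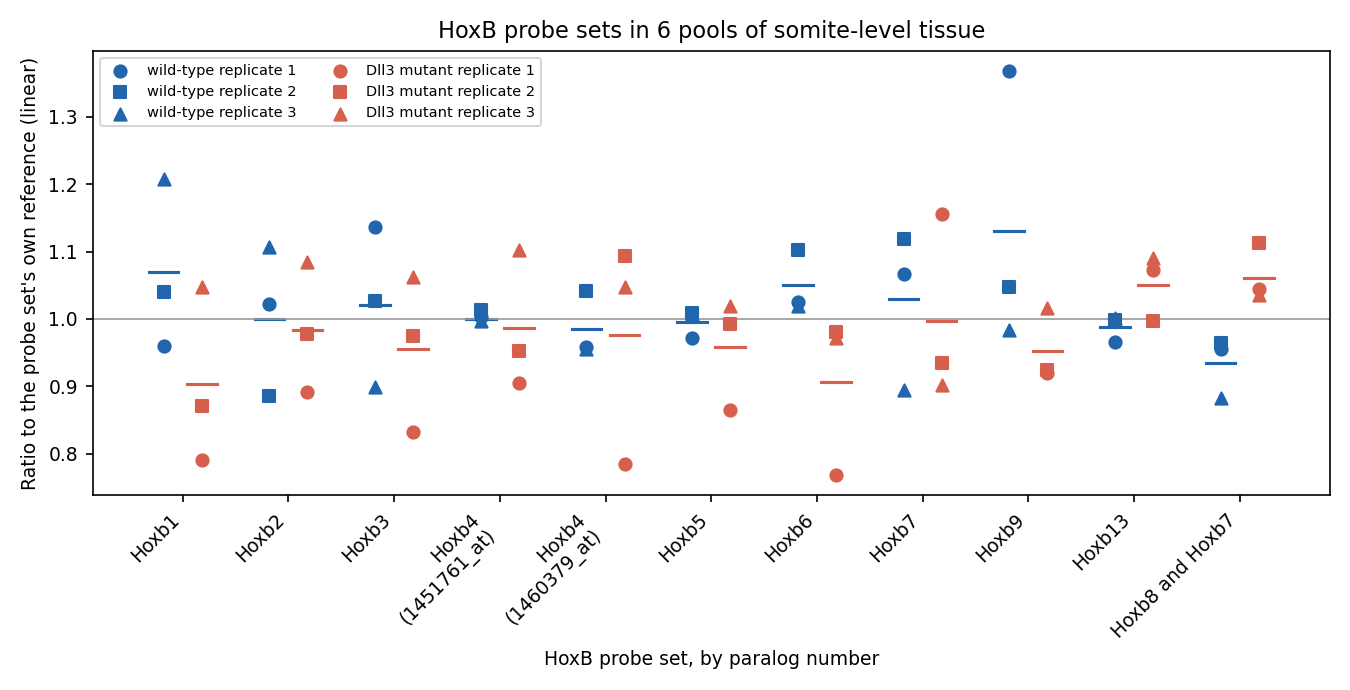
Ratio of each HoxB probe set to its own reference (linear axis) in the 3 wild-type pools (blue) and the 3 Dll3 mutant pools (red), by paralog number, with the probe set shared by Hoxb8 and Hoxb7 last. Points are single pools, their shape gives the replicate number, and the short lines are group means. Mutant replicate 1 (red circles) is the lowest pool for 7 of the 10 probe sets and the highest for Hoxb7.

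Hoxb1 marks a single hindbrain segment and, earlier, the posterior mesoderm and neural plate. Wild-type pools had Hoxb1 ratios of 0.960, 1.040 and 1.207, and mutant pools had 0.790, 0.871 and 1.047. Mutant replicates 1 and 2 lay below every wild-type pool, and mutant replicate 3 lay inside the wild-type range. The group means were 1.07 ± 0.126 (SD, n = 3) and 0.903 ± 0.131 (SD, n = 3). Mutant minus wild-type was -0.25 on the log2 scale (SE 0.122, 95% interval -0.52 to 0.02) with all pools and -0.16 without mutant replicate 1. Hoxb2, which acts in the hindbrain and in the patterning of facial motor neurons, gave 1.022, 0.886 and 1.107 in wild-type and 0.891, 0.978 and 1.084 in mutant pools. All mutant values of Hoxb2 lay inside the wild-type range, and its log2 difference of -0.03 had an SE of 0.109 (95% interval -0.27 to 0.21).

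Hoxb3, Hoxb4 and Hoxb5 have their anterior limits in the hindbrain and upper spinal cord, and Hoxb4 helps to set the identity of the first neck vertebrae. The Hoxb3 ratio was 1.137, 1.026 and 0.899 for wild-type and 0.832, 0.974 and 1.062 for mutant pools. Its wild-type values spread as widely as its mutant values, and the log2 difference was -0.10 (SE 0.117). Without mutant replicate 1 it was 0.0015. With the sex-linked score of the pools (described with the X-linked Kdm6a), which moves with genotype, as a covariate it was -0.44 (SE 0.177). Hoxb4 was measured by a pair of probe sets. The first was nearly constant in the wild-type pools, at 1.003, 1.013 and 0.997, and spread from 0.905 through 0.953 to 1.102 in the mutant pools. The second gave 0.958, 1.042 and 0.955 in wild-type and 0.785, 1.094 and 1.048 in mutant pools. Both probe sets had mutant replicate 1 as the lowest pool, and both had a log2 difference of -0.03 (SE 0.095 and 0.123). In the fit over genes, where Hoxb4 is the mean of its probe sets, it was at -0.03 (95% interval -0.24 to 0.19). Hoxb5 gave 0.971, 1.009 and 1.007 in wild-type and 0.865, 0.993 and 1.019 in mutant pools. Mutant replicate 1 lay below the other 5 pools, which ran from 0.971 to 1.019, and the log2 difference was -0.06 (SE 0.092).

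Hoxb6, Hoxb7 and Hoxb9 are genes of the trunk, where they are transcribed in spinal cord and mesoderm. Hoxb6 was the only member whose groups did not overlap in the lower direction: it gave 1.025, 1.102 and 1.019 in wild-type and 0.768, 0.981 and 0.971 in mutant pools. Such a separation was found in 3.39% of all probe sets. Its means were 1.05 ± 0.0463 (SD, n = 3) and 0.907 ± 0.12 (SD, n = 3), a log2 difference of -0.22 (SE 0.108, 95% interval -0.46 to 0.02). Mutant replicate 1 was the farthest from the wild-type pools, and without it the difference was -0.10. Hoxb7 went the other way in that pool: it gave 1.066, 1.119 and 0.895 in wild-type and 1.155, 0.934 and 0.902 in mutant pools, so mutant replicate 1 was its highest value. Both groups spanned much the same range, at a log2 difference of -0.04 (SE 0.12), and without that pool Hoxb7 was at -0.16. Hoxb9, the trunk gene nearest the 5′ end before a long gap in the cluster, gave 1.368, 1.047 and 0.984 in wild-type and 0.919, 0.924 and 1.016 in mutant pools. Wild-type replicate 1 stood above all other pools, and mutant replicate 3 lay inside the wild-type range. Its log2 difference was -0.24 (SE 0.122, 95% interval -0.50 to 0.03), and leaving wild-type replicate 1 out gave -0.09. With the sex-linked score, which moves with genotype, as a covariate it was -0.64 (SE 0.169).

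Hoxb13, the most 5′ gene of the cluster, known from the tail bud and hindgut, was the only HoxB gene above 0. Its ratio was 0.965, 0.998 and 1.002 for wild-type pools against 1.073, 0.997 and 1.090 for mutant pools. Mutant replicates 1 and 3 lay above the wild-type pools and mutant replicate 2 inside their range. On the log2 scale Hoxb13 was 0.09 apart (SE 0.084, 95% interval -0.09 to 0.28). The SD of Hoxb13 over the 6 pools was 0.0688 on the log2 scale, smaller than that of most probe sets: 12.5% had a smaller one. For Hoxb1 and Hoxb9 these shares were 93.1% and 92.4%.

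The probe set shared by Hoxb8 and Hoxb7 lay above 0, as Hoxb13 did among the members, and unlike the other 9 member probe sets. Wild-type pools read 0.956, 0.964 and 0.882 and mutant pools 1.044, 1.113 and 1.036, so that every mutant pool lay above every wild-type pool. A separation of that kind was found in 4.07% of all probe sets. Mutant minus wild-type was 0.19 as a log2 difference (SE 0.086, 95% interval 0.0004 to 0.38), with a limma p of 0.0496 before and 0.99996 after adjustment, so it did not pass. Since the annotation names both genes, the signal cannot be assigned to Hoxb8 or to Hoxb7, and the probe set of Hoxb7 alone did not show the same order of pools.

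**Figure D2:**
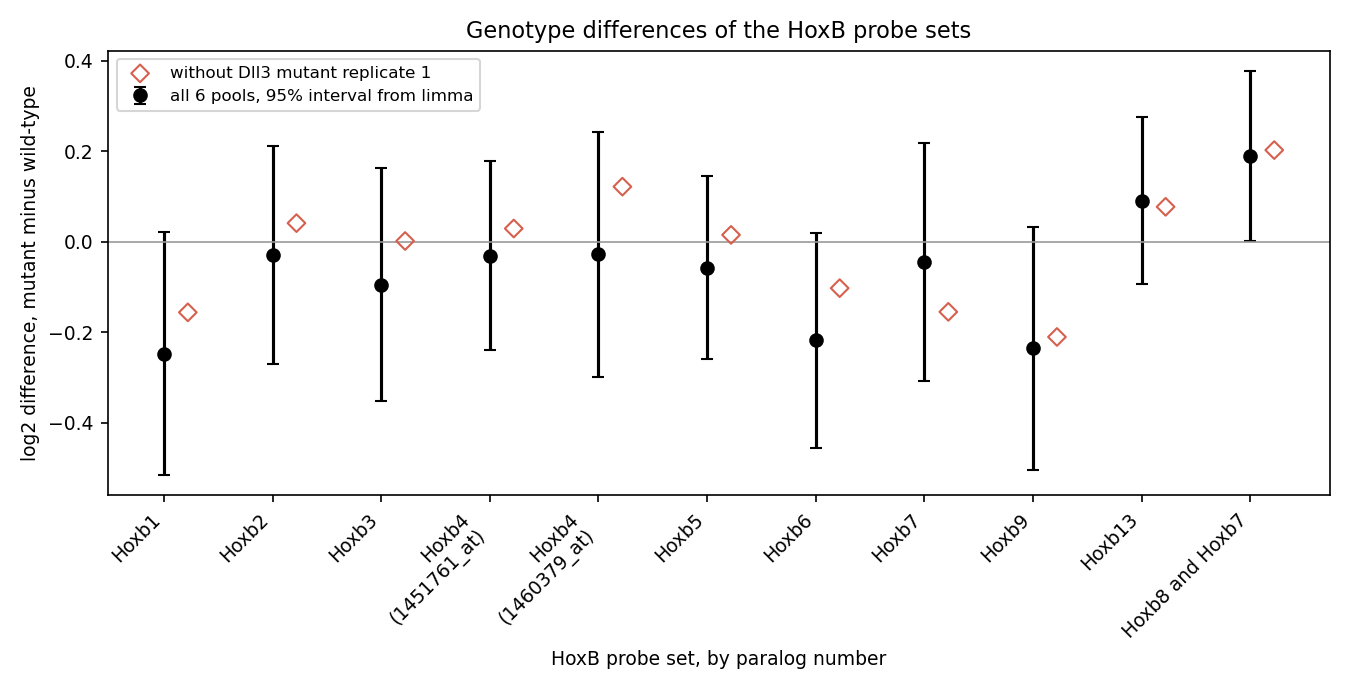
The log2 difference (mutant minus wild-type) of each HoxB probe set with its 95% interval from limma (black, all 6 pools), and the same difference without Dll3 mutant replicate 1 (open red diamonds, no interval). All 10 intervals of the members hold 0, and the difference without that pool is above 0 for Hoxb2, Hoxb3, both Hoxb4 probe sets, Hoxb5, Hoxb13 and the shared probe set.

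The mutant pools also differed among themselves. Mutant replicate 1 was the lowest of the 6 pools for 7 of the 10 HoxB probe sets, against 20.4% of all probe sets. It lay below the mean of the other mutant pools for 8 of 10, with a median distance of -0.21, while 55.2% of all probe sets did so with a median of -0.02. Averaged over the 9 HoxB genes, log2 ratios were 0.07, 0.04 and 0.01 (wild-type) and -0.16, -0.05 and 0.04 (mutant), so mutant replicate 3 lay among the wild-type pools. With 1 wild-type pool left out, the HoxB median was -0.04 (replicate 1), -0.09 (replicate 2) or -0.14 (replicate 3), and with mutant replicate 2 or 3 left out it was -0.08 or -0.10. With array weights it was -0.11, and 6 of the 9 genes lay below 0.

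Mutant replicate 1 also stood apart in some genes that are transcribed in front of the dissected piece. For Lhx2 and Dlx5 that is not the only site, since limb bud and otic vesicle can lie in the piece or at its edge. Otx2, a homeobox gene of forebrain and midbrain that is not transcribed in the trunk, had a ratio of 2.208 in that pool and 0.907 to 1.044 in the others. Lhx2, a LIM homeobox gene of forebrain, eye and limb bud, had 2.248 against 0.781 to 1.159. En2, of the midbrain and hindbrain border, had 1.410 against 0.951 to 1.082, and Dlx5, of the first arches, otic vesicle and anterior neural ridge, had 1.681 against 0.781 to 1.021. These 4 genes were picked after their values were seen. None passed the adjusted threshold in the main comparison. Lhx2 was among 4 genes past it when the less variable probe sets were left out. That filter used the SD over all 6 pools, mutant replicate 1 included. The call is therefore not independent of the value for which Lhx2 was picked, and no conclusion is drawn from it. Of the 11 measured genes in a forebrain and midbrain list that was added afterwards, 6 were highest in mutant replicate 1 and none was lowest. Their mean log2 ratio was 0.30 in that pool, -0.04 and -0.09 in the other mutant pools and -0.15 to 0.05 in the wild-type pools. Without Otx2 and Lhx2 the mean of the other 9 was 0.11 in that pool and -0.14 to 0.07 in the other pools. Of those 9 genes, 4 were highest in that pool and none was lowest, while 17.3% of all probe sets were highest there. Dmbx1, a midbrain homeobox gene, had the smallest p among the lower genes of the list, at -0.11 (SE 0.095), and Lhx2 among the higher, at 0.61 (SE 0.246) with all pools and 0.25 without mutant replicate 1. Six3 and Rax, which mark the anterior forebrain and eye field, were at 0.977 and 1.008 in that pool, against 0.831 to 0.965 and 0.969 to 1.082 elsewhere. For the 10 hindbrain and otic genes, which include Otx2, En2 and Dlx5, the mean was 0.17 in mutant replicate 1 and -0.14 to -0.05 in the other 5 pools. That distance rested on these 3 genes: the mean of the other 7 was -0.09 in mutant replicate 1, inside the range of the other pools (-0.12 to -0.06), and of the 7 it was highest for 1 and lowest for 2. Egr2, which marks hindbrain segments, had the smallest p among the lower genes, at -0.06 (SE 0.085), and Otx2 among the higher, at 0.39 (SE 0.26). For the 10 pharyngeal arch genes, a list added at the same time, the mean was 0.12 in mutant replicate 1 and -0.12 to 0.03 elsewhere, and without Dlx5 it was 0.05 and -0.09 to 0.04. Lhx6 was at -0.20 (SE 0.095) and Dlx1 at 0.20 (SE 0.090), both homeobox genes of the arches. The part that these markers have in the low HoxB ratios of the pool was not tested.

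Of the lists for tissue inside the piece, the somite and neuron lists had their lowest mean in that pool, while the neural tube progenitor and lateral plate lists did not. The 16 somite genes had a mean log2 ratio of -0.19 in mutant replicate 1 and of -0.07 and 0.05 in the other mutant pools. In the wild-type pools it was -0.01 to 0.10. Of these 16 genes, 7 were lowest in mutant replicate 1, against 21% of all genes. Uncx, a homeobox gene transcribed in caudal half-somites, was the lower gene of smallest p, at -0.998 (SE 0.124, adjusted p = 0.116 in limma over all genes), and Foxd1, a forkhead gene, was at 0.14 (SE 0.105). The 12 neuron genes were at -0.15 in that pool, 0.14 and 0.003 in the other mutant pools and -0.05 to 0.08 in wild-type. Mnx1, a motor neuron gene, was at -0.33 (SE 0.122) and Isl1, of motor and sensory neurons, at 0.10 (SE 0.091). The 15 neural tube progenitor genes were at -0.07 in mutant replicate 1, 0.03 and 0.08 in the other mutant pools and -0.11 to 0.06 in wild-type. Msx1, of the dorsal neural tube, was at -0.15 (SE 0.080) and Fabp7, of radial progenitors, at 0.27 (SE 0.158). The 11 lateral plate and limb genes were at -0.01 in mutant replicate 1 and -0.07 to 0.10 in the other pools. The 11 genes listed for tail bud and presomitic mesoderm had their highest mean in that pool by a small margin, 0.0114 against 0.0064 in wild-type replicate 2. The mean was -0.10 and -0.01 in the other mutant pools and -0.05 to 0.01 in wild-type. Whether these genes are transcribed only behind the piece was not checked. Over both genotypes, 6 of these 11 genes were lower and 5 higher in the mutant pools, led by Nkx1-2 at -0.14 (SE 0.097) and Fgf8 at 0.14 (SE 0.119). No gene of these lists passed the adjusted threshold.

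**Figure D3:**
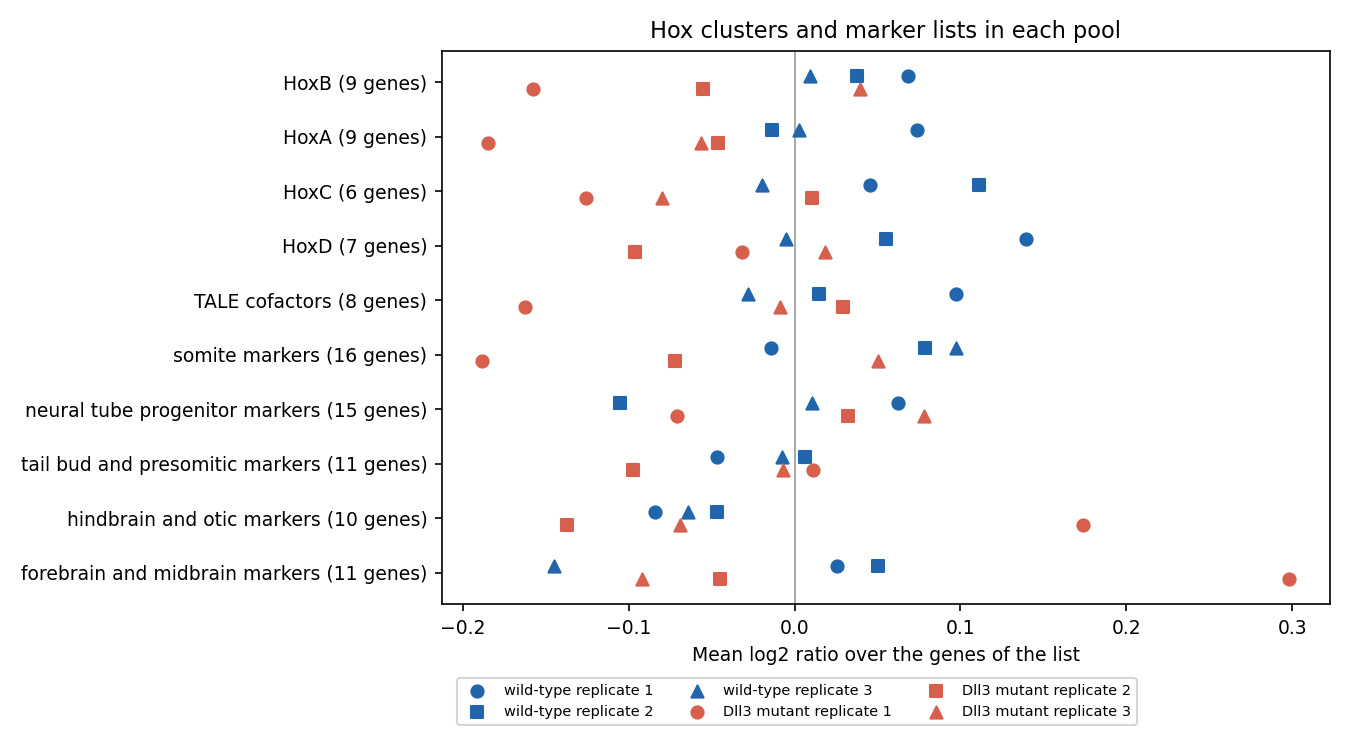
Mean log2 ratio over the measured genes of each list (horizontal axis) for each pool, with wild-type pools in blue, Dll3 mutant pools in red and the replicate number given by the shape. Mutant replicate 1 (red circle) is lowest for HoxB (-0.16), HoxA, HoxC, the TALE cofactors and the somite markers. It is highest for the hindbrain and otic list (0.17) and for the forebrain and midbrain list (0.30), which was added after seeing the data. By a small margin it is also highest for the tail bud and presomitic list (0.0114, against 0.0064 in wild-type replicate 2). Without Otx2, En2 and Dlx5 the hindbrain and otic mean of that pool is -0.09.

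The other clusters give the family background. In HoxA 7 of 9 measured genes were lower in the mutant pools (median -0.17), in HoxC 5 of 6 (median -0.10) and in HoxD 6 of 7 (median -0.10). No Hox gene of any cluster passed the adjusted threshold. Hoxa9, Hoxc8, Hoxc9 and Hoxd8 had an unadjusted p under 0.05 and were lower, which held for 1.36% of all genes, and no HoxB gene was among them. Groups did not overlap, in the lower direction, for Hoxa3, Hoxa9, Hoxb6, Hoxc8 and Hoxc9, against 3.49% of all genes. Hoxc8 was at -0.25 (SE 0.095) and Hoxd8 at -0.30 (SE 0.113). The higher genes of smallest p were Hoxa11 at 0.03 (SE 0.089), Hoxc13 at 0.07 (SE 0.088) and Hoxd12 at 0.14 (SE 0.103). Without mutant replicate 1 the medians were -0.09 for HoxA, with 6 of 9 lower, -0.06 for HoxC, with 6 of 6 lower, and -0.10 for HoxD, with 4 of 7 lower. The HoxB median of 0.0015 in that setting lay nearer to the median of all genes (0.0116) than to these, but the difference between clusters was not tested. Of the 22 measured Hox genes outside HoxB, 11 had mutant replicate 1 as their lowest pool, as did 6 of the 9 HoxB genes and 21% of all genes.

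Paralogs, the genes of equal number in different clusters, can be set beside each HoxB member. In group 9 Hoxa9 was at -0.18, Hoxb9 at -0.24, Hoxc9 at -0.28 and Hoxd9 at -0.10. In group 6 Hoxb6 was at -0.22 and Hoxc6 at -0.08. In group 5 Hoxb5 was at -0.06, Hoxa5 at -0.26 and Hoxc5 at -0.003. In group 1 Hoxb1 was at -0.25 and Hoxd1 at -0.06. Groups 2, 3, 4 and 7 had no measured gene above 0: Hoxa2 (-0.08), Hoxa3 (-0.18), Hoxa4 (-0.0015), Hoxc4 (-0.12) and Hoxa7 (-0.17) stood beside their HoxB paralogs. Group 13 was mixed, with Hoxb13 at 0.09, Hoxc13 at 0.07, Hoxa13 at 0.003 and Hoxd13 at -0.18. The SEs of these genes ran from 0.0733 (Hoxb13) to 0.145 (Hoxd1), and no difference between paralogs was tested.

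**Figure D4:**
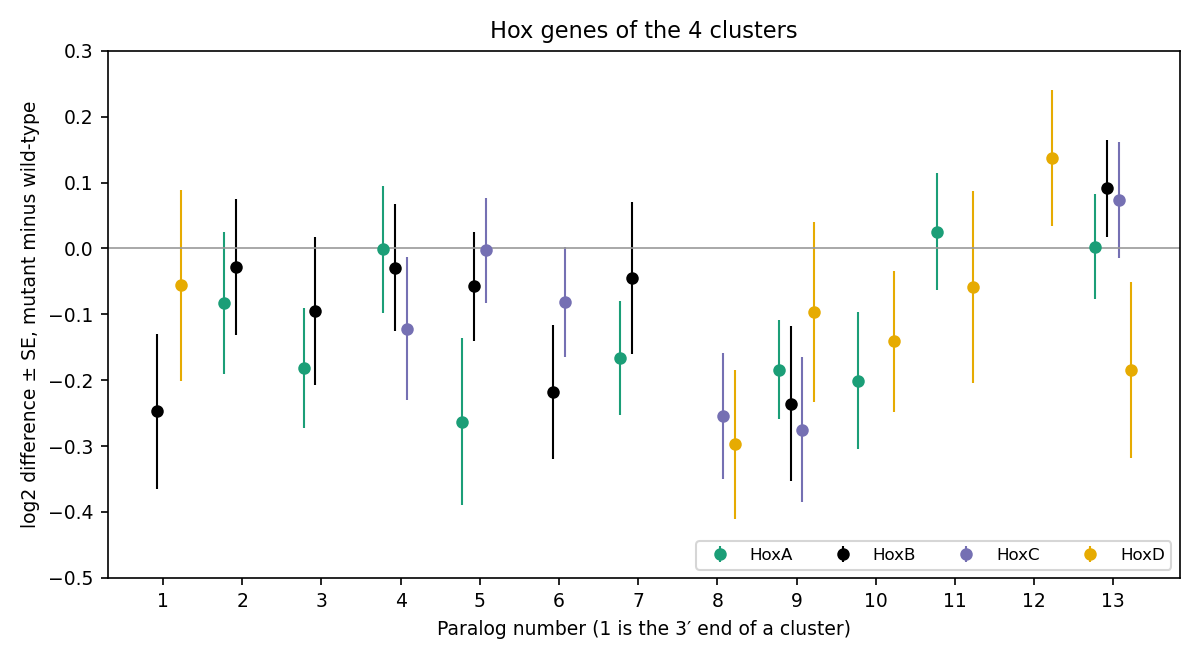
The log2 difference (mutant minus wild-type) with its SE for every measured Hox gene by paralog number, coloured by cluster. HoxB genes (black) lie between -0.25 and 0.09, inside the range of the other clusters, and all measured genes of groups 1 to 9 lie below 0 with all 6 pools, while in HoxB Hoxb2 to Hoxb5 lie above 0 without mutant replicate 1.

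The TALE proteins Pbx, Meis and Pknox bind DNA together with Hox proteins. Of the 8 measured genes, 7 were lower and 1 higher in the mutant pools (median -0.07). Mutant replicate 1 was the lowest pool for 5 of them, against 21% of all genes. Pknox1 had the smallest p among the lower ones, at -0.16 (SE 0.095), and Meis3 was the one at 0.03 (SE 0.12). None passed, and without mutant replicate 1 the median was -0.04.

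Retinoic acid is made by Aldh1a2 in the somites and turns on the 3′ HoxB genes through its receptors. In the retinoic acid list 7 of 17 genes were lower and 10 higher (median 0.01). An unadjusted p under 0.05 was found for 2 of the 17, Rbp4 and the retinoic acid binding protein gene Crabp1, both higher, and for 1.31% of all genes in that direction. Aldh1a2 gave 0.993, 1.090 and 1.029 in wild-type and 0.775, 0.964 and 1.007 in mutant pools, with overlap at mutant replicate 3, and was at -0.19 (SE 0.103). Rbp4, the carrier of retinol in blood, was above every wild-type pool in every mutant pool and was at 0.37 (SE 0.122). Its adjusted p in limma over all genes was 0.9997. Of all genes, 3.98% had such a separation in the upper direction, and in this list it was 1 of 17.

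Other upstream regulators of the clusters were even, with 7 of 14 lower and 7 higher (median -0.01). Cdx2, a homeobox factor that activates trunk Hox genes, was at -0.10 (SE 0.077), and Fgf8 was the higher gene of smallest p. In the Polycomb and Trithorax list, whose proteins keep Hox genes silent or active, 8 of 21 genes were lower and 13 higher (median 0.03). Wdr5, of the Trithorax type complexes, was at -0.10 (SE 0.076). Kdm6a, an X-linked histone demethylase, was at 0.21 (SE 0.103), with ratios of 0.932, 0.849 and 1.010 in wild-type and 0.944, 1.106 and 1.192 in mutant pools. The pools also differed in sex-linked transcripts: the log2 level of Xist minus the mean of 3 Y-linked genes was -0.085, -1.48 and -1.73 in wild-type and 0.0449, 0.814 and 0.729 in mutant pools. All mutant pools lay above all wild-type pools in this score, so it moves with genotype and these pools cannot tell sex and genotype apart. With the score as a covariate the HoxB median was -0.14 and 8 of 9 genes lay below 0. The largest moves were those of Hoxb9, from -0.24 to -0.64 (limma p 0.00336), and Hoxb3, from -0.10 to -0.44 (limma p 0.032), both before adjustment. In that fit 267 of all 22626 probe sets had an unadjusted p under 0.05. Wild-type replicate 1, whose score stood apart from those of the other wild-type pools, was the highest pool for both Hoxb9 (1.368) and Hoxb3 (1.137). After adjustment each HoxB probe set had a p that rounds to 1 in that fit. The part of the sex mix in the HoxB differences was not tested further.

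The neighbours of the cluster on its chromosome were not low with it. Of 11 measured flanking genes 3 were lower and 8 higher (median 0.04), and none passed. Cbx1, a heterochromatin protein gene, was at -0.08 (SE 0.070, limma p 0.303 before adjustment), with every mutant pool below every wild-type pool. Cdk5rap3 was at 0.13 (SE 0.072, limma p 0.0918 before adjustment), with every mutant pool above. Over all genes, 3.49% had such a separation below and 3.98% above. Of the 11, 2 were lowest in mutant replicate 1, against 21% of all genes.

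Genes of tissues that the dissection removed, or that lie beside the somites, were as follows. Heart genes were higher for 7 of 10 (median 0.03), with Tnnt2 at 0.29 (SE 0.0999, limma p 0.0142 before adjustment) and Nppa at -0.06 (SE 0.075). Tnnt2 gave 0.891, 0.923 and 0.980 in wild-type and 1.003, 1.306 and 1.134 in mutant pools. Every mutant pool thus lay above every wild-type pool, for 1 of the 10 heart genes and 3.98% of all genes. Endoderm genes were lower for 6 of 10 (median -0.02), and their mean log2 ratio was 0.15 in mutant replicate 1 and 0.16 in wild-type replicate 3, against -0.14 to 0.04 in the other 4 pools. Hhex was at -0.15 (SE 0.090) and Epcam at 0.17 (SE 0.158). Lateral plate and limb genes, among which HoxB genes are also transcribed, were lower for 5 of 11 (median 0.02), with Tbx4 at -0.31 (SE 0.124) and Prrx2 at 0.10 (SE 0.079). None of these genes passed.

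Among genes outside the cluster, those whose pattern over the 6 pools was nearest to the mean HoxB pattern were Akap8l, Ptpn18, Slco5a1, Ints7 and Rabepk. Likeness was the root mean square distance between log2 values centred on each gene's own mean, and it was 0.0213 to 0.0279 for these genes, 0.0478 (Hoxb5) to 0.189 (Hoxb7) for the members themselves and 0.123 at the median of 11939 other genes (those whose SD was at least 0.5 times that of the HoxB mean). Akap8l gave 1.028, 1.002 and 0.998 for wild-type and 0.893, 0.941 and 1.047 for mutant pools, with its lowest value in mutant replicate 1 and its highest in mutant replicate 3. Likeness to a mean over 9 genes is a description of 6 pools, and Hoxb7, Hoxb1 and Hoxb9 were farthest from it.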

How the data were processed

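The values the authors deposited, for 22690 probe sets in 6 pools, were read as linear ratios because 93.4% of rows have a median of 1 within 0.0015. Per the submitters' processing notes RMA and MAS5 were used, without version or role. The scaling between arrays and the genome build are not given in the sources used here. After 64 controls were left out, limma 3.58.1 under R 4.3.3 was run on log2 ratios (lmFit, eBayes without trend, genotype only, two-sided, no pseudocount, Benjamini-Hochberg under 0.05). A gene was the mean of its probe sets with 1 symbol (20380 of 22626; 691 had several symbols and 1555 none). An exact permutation test of 3 against 3 reaches p = 0.1 at best, and 6 arrays limit the precision (median SE 0.0988). Nothing says whether embryos of one litter were split between pools. In a simulation of this comparison, 200 of 22626 probe sets were changed and noise was drawn independently for each probe set. There 75.8% of changes of 0.5 and 100% of changes of 1 on the log2 scale were recovered. Of the simulated calls, 6.15% were false. Deviations shared by many genes of a pool were not simulated, so these shares need not hold for the real pools. Uncx, at -0.998, did not pass in the main fit over genes.

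The members and lists were chosen with earlier results of these data known, and the forebrain, midbrain and pharyngeal arch lists after seeing these values. The rule names all members, Dll3, of each other list the gene of smallest p per direction, paralogs of members and the 5 nearest patterns. Outside it, En2, Dlx5, Six3, Rax, Crabp1, Hnrnpl and Xist were named after their values were seen. Sequences are from RefSeq, with promoter entries matched for Hoxb1 and Hoxb4 among the measured members.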

Additional observations from a re-analysis of the deposited data

How the results depend on the processing

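All alternatives to the fit were run. Of 188 results for single members and the shared probe set under them, none passed the adjusted threshold (lowest adjusted p 0.631), 175 kept their direction and 13 turned it. With array weights Hoxb2 was at 0.0371, the second Hoxb4 probe set at 0.0413 and the Hoxb4 mean at 0.00835. With each pool left out in turn the ranges were -0.116 to 0.0442 for Hoxb2, -0.183 to 0.0015 for Hoxb3, -0.113 to 0.0291 and -0.118 to 0.122 for the Hoxb4 probe sets, -0.0999 to 0.0754 for their mean, -0.103 to 0.015 for Hoxb5 and -0.155 to 0.0232 for Hoxb7. The HoxB median (-0.0576) was -0.136 with the sex score as a covariate, where Hoxb9 was at -0.64 and Hoxb3 at -0.438, -0.108 with array weights and -0.14 to 0.0015 with pools left out. The cause was not tested, beyond the smaller number of pools where one is left out.

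Probe sets past the adjusted threshold numbered 0, and 1 with the replicate block, 1 with array weights, 2 in a robust fit with a trend, 6 without the less variable 50% of probe sets and 0 to 1 with a pool left out. For genes the count was 0, and 1 with the replicate block, a trend, the robust fit or array weights, 4 without the less variable probe sets and 0 to 1 with a pool left out. The genes so called were Uncx, Hnrnpl, Xist and Lhx2, beside probe sets without a symbol, and no HoxB gene. The count at an unadjusted p under 0.05 (595) was 1072 with the replicate block, 1770 with array weights, 267 with the sex score, 173 without the less variable probe sets and 319 to 1229 with a pool left out. Over all probe sets, deviations from the group means correlated at 0.368, -0.0249 and 0.37 for the pools that share a replicate number. For pools of unlike number the range was -0.427 to 0.197, below the values of replicates 1 and 3. Whether the numbers pair the pools cannot be told from these values, and the main fit left the numbers out. Ratios keep no signal over background, so a dim probe set cannot be told from a bright one.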
